A study of Cardamine hirsuta with 6 samples.

Results

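The peaks described here are the stretches of *Cardamine hirsuta* DNA bound in vitro by ChCUC1 that lie in introns. They are the peaks of the reproducible DAP-seq list whose entry in the study's peak annotation places the peak centre in an intron, and they numbered 243 in 233 genes. The reproducible list held 2432 peaks, and annotation rows were held for 1997 of them, so that introns took 12.2% of the annotated peaks (95% exact binomial interval 10.8 to 13.7%). Rows for the other 435 peaks were left out. Annotation was held down to a −log10 p of 26.4097, and the strongest peak without it had 26.4025, so the intronic peaks with the largest p-values are outside this description.

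DNA affinity purification sequencing (DAP-seq) mixes a tagged transcription factor with sheared genomic DNA and sequences the fragments that stay on the beads. In the 3 ChCUC1 samples the factor carried an N-terminal HaloTag and was made in a wheat germ extract. In the 3 Halo control samples the HaloTag stood alone. All 6 samples carry the genotype label Oxford and the tissue label seedlings, while the protocol names rosette leaves of plants aged 4 weeks as the DNA source, with about 5 µg of DNA sheared to 200 to 400 bp. The DNA was free of chromatin proteins, so that a peak shows where ChCUC1 can bind and not where it is bound in a leaf cell.

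CUC1 belongs to the NAC family of plant transcription factors, which bind short core sequences through the conserved domain at their N terminus. CUC genes act at organ boundaries and, in species with complex or serrated leaves, along the leaf margin. Introns of plant genes are transcribed and then spliced out of the RNA, and some of them carry sequences that bind transcription factors. Gene names given below are those of the *A. thaliana* match that the study lists for a *C. hirsuta* gene, and 195 of the 243 intronic peaks lie in a gene with such a match. For the other 48 no match of the gene with the intron is given in the held rows. The start of another gene was the nearest for 10 of the 243 peaks, of which 3 lie in a gene with a match.

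Fold enrichment is the enrichment of reads at a peak over the Halo control, as computed by the authors. Besides its value in the reproducible list, which pools the ChCUC1 libraries and carries no replicate error, each peak has a value in up to 3 lists called on single ChCUC1 libraries against the pooled Halo control. By their names, the whole-library list used all reads of a library, and the longer (3753 peaks) and the shorter (3253 peaks) pseudoreplicate lists each used a random subset of the reads of a library. In these names, the run number of the longer list differs from that of the other 2. The single-library lists have no replicate numbers, share the control and are not independent of the reproducible list. Read depths are unknown, because the lists hold no read counts. All intervals cover counting error over peaks only.

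The highest fold enrichment of an intronic peak was 9.39, against 9.67 over the other annotated peaks. Peaks in first exons reached 9.29 and those in later exons 9.06, so high values were not particular to introns. Sulfate uptake, auxin response, auxin conjugation and peroxidase genes were among the 12 with the highest fold enrichment, which ranked from 2 to 72 among the 2432 reproducible peaks. All 12 were called in each of the 3 single-library lists, and in each list every one of them exceeded the median intronic peak of that list. The 12 were picked by their value in the reproducible list, from which these lists are not independent. Both results were largely set by that choice and show nothing particular to introns. Of the annotated peaks outside introns with a fold enrichment of at least 4, 99.2% (483 of 487) had a call in all 3. The order within the 12 differed between lists.

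The highest was in the last intron (4 of 4) of *CARHR273710*, a gene without a listed match, on chromosome 8 from 17702339 to 17702864. In the reproducible list its fold enrichment was 9.39. The whole-library list gave 8.30, the longer pseudoreplicate list 9.30 and the shorter one 10.03. The value was thus high in all lists, and no other intronic peak exceeded it in the shorter list. A weaker peak lay in intron 1 of the same gene, with its summit 1153 bp away and a fold enrichment of 3.16 in the reproducible list.

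*SULTR1;2* (*CARHR071460*) encodes a high-affinity sulfate transporter that takes up sulfate in *A. thaliana* roots. Its peak, on chromosome 2 from 19014645 to 19015175 in intron 2 of 11, had a fold enrichment of 8.85 in the reproducible list, and 9.06, 7.23 and 7.02 in the whole-library, longer and shorter lists. It was the highest intronic peak of the whole-library list and lower in both pseudoreplicate lists. The summit lay 2, 1 and 8 bp from the reproducible summit in the same lists.

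*IAA19* (*CARHR090620*) encodes an Aux/IAA protein, one of the repressors that auxin removes by targeting them for degradation. The peak in its first intron (1 of 2), on chromosome 3 from 5283647 to 5284209, had a fold enrichment of 8.13 in the reproducible list, against 8.37, 5.31 and 8.24 in the whole-library, the longer and the shorter list. The longer list was the low one, and the ratio of the highest to the lowest value, 1.58, was the largest among the 12. The peak had the highest −log10 p of all intronic peaks, at 390.

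Of the other 9, *RHS18* (*CARHR191120*, peroxidase 60) and *PER4* (*CARHR015030*, peroxidase 4) encode class III peroxidases, secreted enzymes that act on cell wall phenolics. The *RHS18* peak had a fold enrichment of 7.69 in the reproducible list, and 7.62, 7.56 and 5.77 in the whole-library, the longer and the shorter list. The *PER4* peak had 6.74 in the reproducible list, and 6.85, 5.94 and 6.92 in the same 3 lists. The low value was that of the shorter list for *RHS18* and that of the longer list for *PER4*.

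*GH3.17* (*CARHR027600*) encodes an enzyme that conjugates auxin to an amino acid, and *NAC094* (*CARHR262420*) a transcription factor of the same NAC family as CUC1. The *GH3.17* peak, in the last intron (3 of 3) and 1799 bp from the gene start, had a fold enrichment of 6.62 in the reproducible list, and 6.52, 6.35 and 5.86 in the whole-library, the longer and the shorter list. The *NAC094* peak, also in a last intron (2 of 2), had 6.59 in the reproducible list, and 6.76, 5.96 and 6.69 in the same 3 lists. For both genes the values differed little between lists, with a ratio of highest to lowest of 1.11 for *GH3.17* and 1.13 for *NAC094*.

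The remaining 5 were in *CARHR191060* (match AT5G22470, fold enrichment 7.84), *CARHR154880* (match AT3G46780, 7.58), *CARHR059520* (match AT1G67070, 7.01), *CARHR224670* (6.69) and *CARHR016270* (6.54). The last of these lay in intron 8 of 8 of *CARHR016270*, but the nearest gene start was that of *CARHR016250*, at a signed distance of -5811 bp, upstream of it. In *CARHR191060*, *CARHR154880* and *CARHR059520* the shorter list gave the highest value (8.46, 8.74 and 8.45) and the longer list the lowest (7.01, 6.30 and 6.35).

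**Figure D1:**
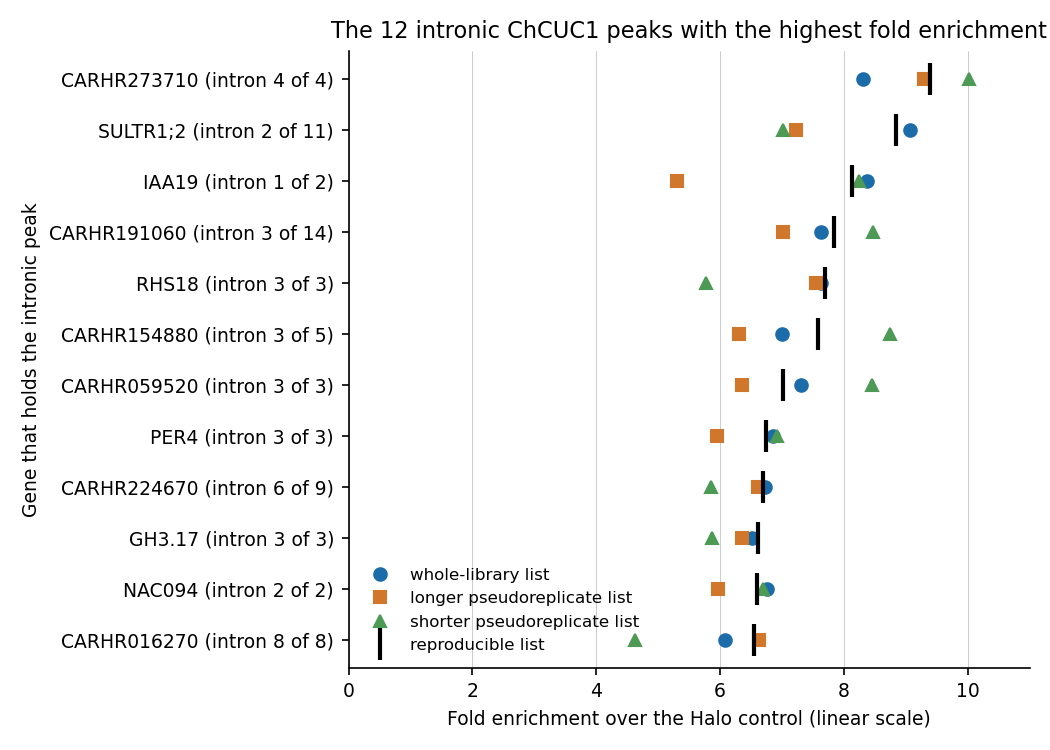
The 12 intronic peaks with the highest fold enrichment over the Halo control (x axis, linear scale), named by the gene that holds the intron and by the intron's number. Circles, squares and triangles are the values in the whole-library, longer and shorter lists, and the black bar is the pooled reproducible list. No list was highest for every gene, and the widest gap was that of *IAA19*, with 8.37 in the whole-library list and 5.31 in the longer pseudoreplicate list.

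At the other end, the 6 intronic peaks with the lowest fold enrichment were in *CARHR289290* (1.90), *ATS1* (2.32), *CARHR243700* (2.33), *CARHR099460* (2.36), *CARHR049230* (2.42) and *DGAT1* (2.43). *ATS1* (*CARHR031570*) encodes the plastid glycerol-3-phosphate acyltransferase and *DGAT1* (*CARHR109890*) an acyltransferase that makes triacylglycerol, so both act in glycerolipid synthesis. The *DGAT1* peak lay in the last of 15 introns, 2863 bp from the gene start, and had 2.60, 2.48 and 2.27 in the whole-library, the longer and the shorter list. The *ATS1* peak had 2.34 (whole-library list) and 2.62 (longer list) and was not called in the shorter one. The *CARHR289290* peak began at base 107 of a scaffold and was called in each of the 3 lists.

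Over all 243 intronic peaks the median fold enrichment was 3.50 (interval of the median 3.27 to 3.66), with quartiles of 2.91 and 4.32. Over the 1754 other annotated peaks it was 3.25 (3.20 to 3.31). The difference of the medians was 0.10 on the log2 scale in the reproducible list, and 0.04, 0.09 and 0.06 in the whole-library, the longer and the shorter list. It was positive in all 4 lists and small against the spread among peaks, and it was not tested, since peaks are not replicates.

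Set beside single categories in the reproducible list, introns were closest to later exons, with a median of 3.50 in introns and 3.43 in later exons (n = 379). The median was 3.30 in first exons (n = 292), 3.29 in promoter-TSS peaks (n = 392), which lie around a gene start, 3.13 in the more distal promoter (n = 215), 3.14 at transcript ends (n = 300) and 3.15 in intergenic DNA (n = 175). The interval of the intronic median overlapped those of both exon classes and of promoter-TSS peaks. It also overlapped those of transcript ends and intergenic DNA, which ended at 3.30, and not that of the distal promoter, which ended at 3.26. The order of the categories was not the same in every list. In the whole-library list the median was 3.45 in introns and 3.47 in later exons, and in the longer list 3.48 and 3.47. In the shorter list it was 3.46 in introns, 3.36 in later exons and 3.50 in promoter-TSS peaks.

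With the annotated peaks split into 4 classes of like size by fold enrichment, the share of intronic peaks was 9.40% in the lowest class (47 of 500, 6.99 to 12.3%), then 11.8% and 13.2%, and 14.2% in the highest (71 of 499, 11.3 to 17.6%). The share was higher at each step, while the intervals of the lowest and the highest class overlapped. Between chromosomes it ranged from 9.40% on chromosome 8 (25 of 266) to 14.7% on chromosome 1 (43 of 292), again with overlapping intervals.

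Nearly all intronic peaks were called again in the whole-library list, 242 of 243, where 99.8% of all annotated peaks were called. In the longer pseudoreplicate list 237 were called, or 97.5% (94.7 to 99.1%), against 96.7% of all annotated peaks. The shorter pseudoreplicate list held 193, or 79.4% (73.8 to 84.3%), against 74.3% of all annotated peaks. The shares were close to the background in the first 2 lists. In the shorter list the interval of the intronic share contained the background and overlapped that of the other annotated peaks, 73.6% (71.5 to 75.7%), and later exons had 79.2%.

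In each of the 3 lists 189 intronic peaks were called, or 77.8% (72.0 to 82.8%), where 72.4% of all annotated peaks were. Later exons had 78.1% (73.6 to 82.2%) and first exons 71.6% (66.0 to 76.7%), so that introns again stood next to later exons. Another 51 intronic peaks were called in 2 lists and 3 in 1. The 189 had a median fold enrichment of 3.77 in the reproducible list, against 2.71 for the 54 called in fewer lists. Of 83 intronic peaks with a fold enrichment of at least 4, 82 were called in each of the 3 lists, as were 483 of 487 such peaks elsewhere. The exception was in *CARHR137700* (match AT2G42560), with 4.69 in the reproducible list, where the longer list gave 5.03, the whole-library list 5.19 and the shorter one no call.

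**Figure D2:**
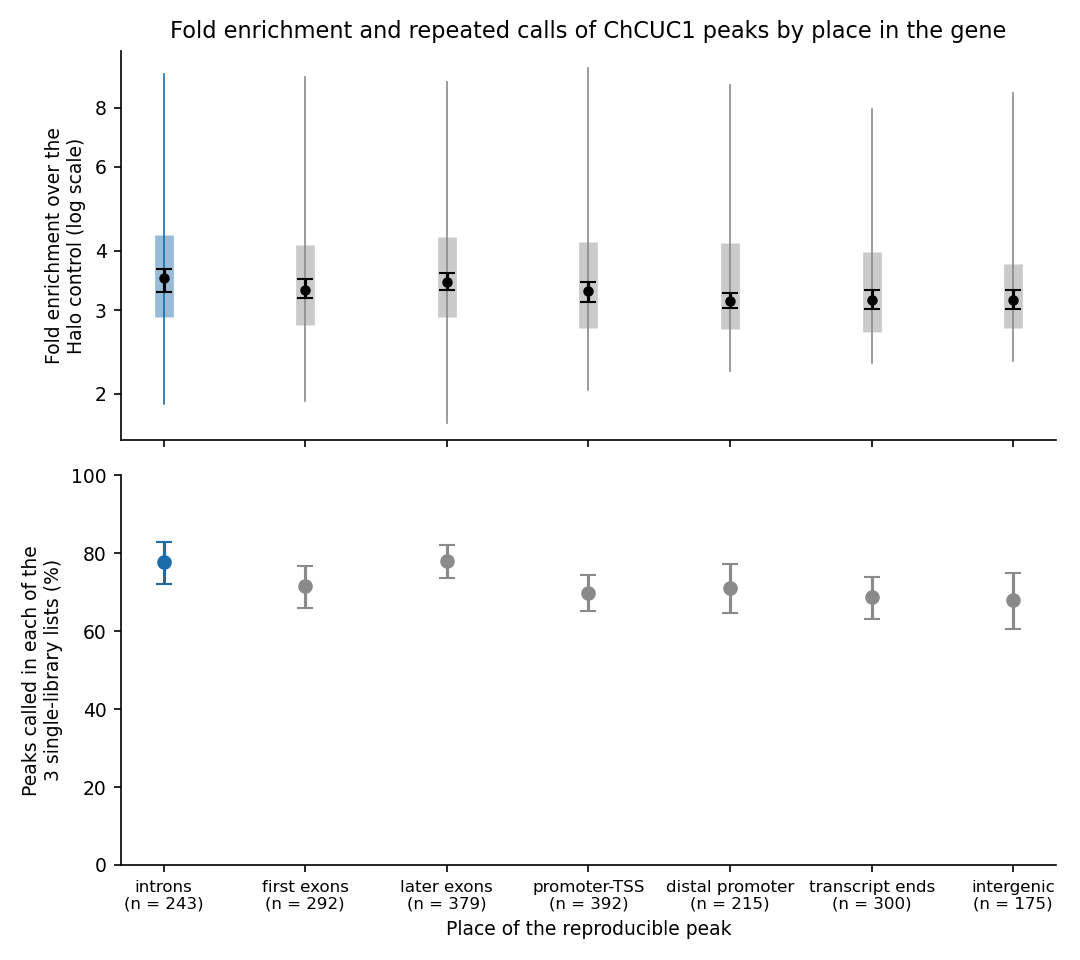
ChCUC1 peaks by their place in the gene, with introns in blue and the 6 other categories in grey. The upper panel shows fold enrichment over the Halo control (log scale), with the range as a thin line, the quartiles as a bar and the median with its 95% interval in black, and the lower panel the percentage of peaks called in each of the 3 single-library lists with its 95% exact interval. Introns (median 3.50, 77.8%) and later exons (3.43, 78.1%) lie close together, and the ranges of all categories overlap.

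For the 189 intronic peaks with a value in all 3 lists, the ratio of the highest to the lowest of them had a median of 1.23 and exceeded 1.5 for 17. The median was 1.24 over the 1257 other annotated peaks with such values. The whole-library list was the highest of the 3 for 80 intronic peaks, the longer for 50 and the shorter for 59. The widest ratio, 2.10, was that of *CARHR259980* (match AT5G60090), with 4.15, 4.79 and 2.28 in the whole-library, the longer and the shorter list. Differences between genes smaller than these ratios are within the spread between lists. The ratios leave out the 54 intronic peaks called in fewer lists, and they do not measure the error of a value in the reproducible list.

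Summits were placed at nearly the same base in every list, with median shifts of 5, 6 and 9 bp from the reproducible summit in the whole-library, the longer and the shorter list. The median width was 500 bp for intronic peaks and 491 bp for the other annotated peaks. Widths varied with the list, with medians for intronic peaks of 490, 662 and 229 bp in the whole-library, the longer and the shorter list. Because the annotation goes by the peak centre, the distance of the summit from the centre decides how well a summit's place is known. It was within 50 bp for 206 intronic peaks and over 100 bp for 24. The widest peak, 1425 bp, was in intron 3 of 3 of *CARHR224840*, and of the 7 peaks wider than 1000 bp, 4 were split into 2 or more calls in at least 1 list.

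Intronic peaks lie inside genes by their annotation, and peaks around a gene start were counted as promoter-TSS, which limits the distances below. For the 233 intronic peaks whose nearest gene start was that of their own gene, the median distance from it was 1089 bp (quartiles 534 and 1799 bp). It was 1289 bp for peaks in later exons and 520 bp for peaks in first exons. Within 500 bp of the start there were 49, within 1000 bp 110, and beyond 2000 bp 45. Beyond 5000 bp there were 4, the farthest 12264 bp from the start of *CARHR174840*. The annotation names a transcript model of the gene for each intron, and 193 of the 243 peaks were placed in model 1. The 4 peaks beyond 5000 bp were placed in model 2 or model 4.

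First introns held 69 of the peaks, or 28.4% (22.8 to 34.5%), and last introns 65, or 26.7% (21.3 to 32.8%), with 19 genes' only introns counted in both. In genes with 2 or more introns, 50 of 224 peaks were in the first intron (22.3%) and 46 in the last (20.5%). In genes with 2 to 4 introns the peaks were spread over all introns. With 2 introns, 17 peaks were in the first and 15 in the second. In genes with 3 introns, 8, 9 and 11 peaks lay in the first, the second and the third, and with 4 introns 10, 8, 4 and 5 lay in introns 1 to 4. Intron lengths were not used here, so these counts are not corrected for the length of each intron. The genes held a median of 5 introns, and 68 peaks were in genes with 9 or more.

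Fold enrichment varied little with the place in the gene. Its median was 3.66 in only introns (n = 19), 3.64 in first introns of several (n = 50), 3.41 in middle introns (n = 128) and 3.51 in last introns of several (n = 46), with overlapping intervals. Calls in each of the 3 lists came to 73.7%, 78% and 75% in only, first and middle introns. In last introns of several they came to 87.0%, or 40 of 46 peaks. The share was 77.8% over all intronic peaks and 72.4% over all annotated peaks. No intervals of these shares were computed by place, so a difference between places is not shown.

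**Figure D3:**
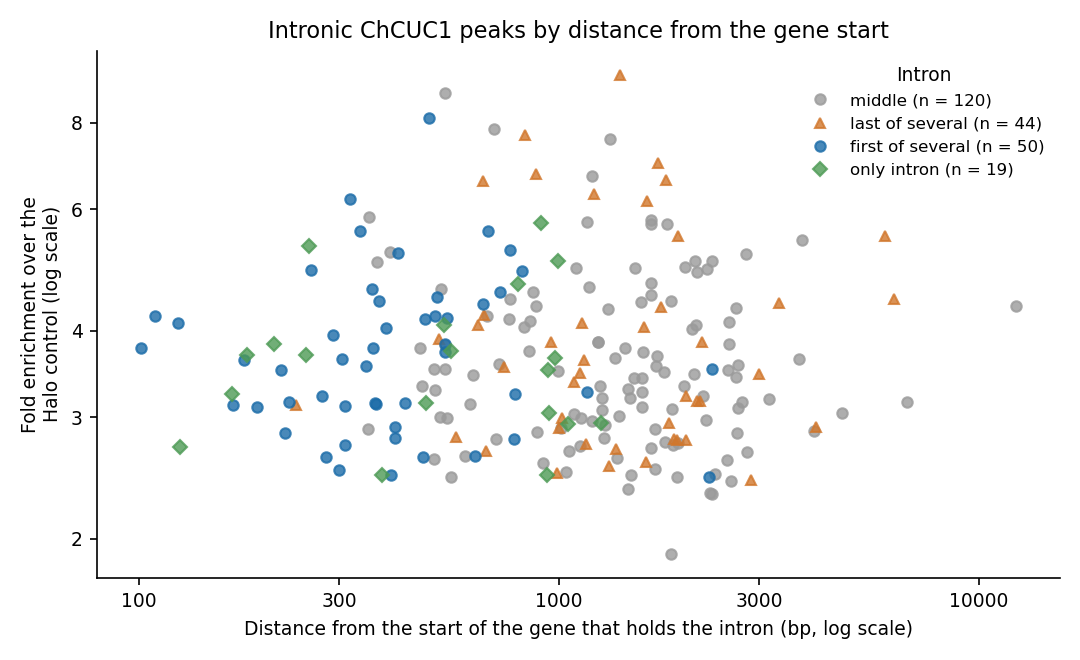
Fold enrichment over the Halo control (y axis, log scale) against the distance from the start of the gene that holds the intron (x axis, bp, log scale) for the 233 intronic peaks nearest to their own gene's start. Each point is a peak, coloured by the place of its intron in the gene. First introns lie nearer the start than middle and last ones, and peaks with a fold enrichment over 6 occur from 318 bp (*CARHR151100*) to 1799 bp (*GH3.17*).

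Gene families of auxin response, conjugation and transport, and those of sulfate transporters and cyclic nucleotide-gated channels, were examined as lists. The number of genes in the annotation was not used here, so the counts below have no background share and do not show that a family holds many or few peaks. Of 29 Aux/IAA genes *IAA19* held an intronic peak, and *IAA2*, *IAA26* and *IAA30* held a peak elsewhere in or near the gene. Of 11 GH3 genes, which conjugate hormones to amino acids, *GH3.17* held an intronic peak and *GH3.2* and *GH3.5* a peak elsewhere. For the 8 PIN genes, which encode auxin efflux carriers, the count of annotated peaks was 0. *ANT* (*CARHR246140*), an AP2-type transcription factor gene of lateral organ growth and 1 of 8 genes of its family examined, had a peak in its last intron (7 of 7). Its fold enrichment was 2.78 in the reproducible list, and 2.72, 2.87 and 2.96 in the whole-library, the longer and the shorter list.

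The ABCB family, whose members include auxin transporters, had 5 intronic peaks in 4 of 21 genes, and *ABCB1*, *ABCB2* and *ABCB4* had a peak elsewhere. *ABCB9* (*CARHR224820*) held 2 intronic peaks with summits 933 bp apart. The one in intron 5 of 11 had a fold enrichment of 4.41 in the reproducible list, and 4.17, 4.39 and 4.17 in the whole-library, the longer and the shorter list. The one in intron 7 had 5.17 in the reproducible list, and 5.08, 4.86 and 3.77 in the same 3 lists. Intron 7 was thus higher in 2 of the 3 lists and lower in the shorter one. *ABCB10* had 3.56, *ABCB14* 3.50 and *ABCB13* 2.72 in the reproducible list, and the median over the 5 peaks was 3.56, against 3.50 over all intronic peaks.

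Other transporter and channel genes with intronic peaks ranged from *SULTR1;2* at 8.85 to *AAC2*, an ADP/ATP carrier gene, at 2.52. Of 12 sulfate transporter genes, *SULTR1;2* and *SULTR1;3* held intronic peaks, and *SULTR1;3* and *SULTR2;1* a peak elsewhere. *SULTR1;3* (*CARHR022500*), at 3.77 in intron 1 of 11, was well below *SULTR1;2*. Of 20 cyclic nucleotide-gated channel genes, *CNGC13* had 4.86, *CNGC18*, a calcium channel of the pollen tube tip, 4.47, and *CNGC4* 3.18, while *CNGC10* and *CNGC16* held a peak elsewhere. *STP14*, a hexose transporter gene, had 4.92, *PHT3;2*, a mitochondrial phosphate carrier gene, 4.89, and *AHA6*, a proton pump gene, 4.55. Lower values were found for *SLAH2*, an anion channel gene (3.85), and *YSL1*, a metal-nicotianamine transporter gene (2.57). Of the genes named in these sentences, *AAC2* had no call in the shorter list and the others were called in each of the 3 lists.

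Among the transcription factor genes examined, *NAC094* and *FUS3* held the strongest intronic peaks. *FUS3* (*CARHR147880*), a B3 regulator of seed maturation, had 6.30 in its last intron (5 of 5) in the reproducible list, and 6.57, 6.62 and 5.05 in the whole-library, the longer and the shorter list. *MYC1*, a bHLH gene of epidermal cell fate, had 4.02, and *ATHB-8*, a class III homeodomain gene of vascular tissue, 3.15. *RSM1* had 3.33, *MYB12*, an activator of flavonol synthesis, 2.90, and *WRKY55* 2.58. *RSM1* and *WRKY55* had no call in the shorter list.

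Of the genes of the cell wall and of lignin synthesis that were examined, *RHS18* and *PER4*, described above, held the strongest intronic peaks. *SKS4* had 5.04, *BGAL6*, a beta-galactosidase gene, 4.11, *GAUT12*, which acts in xylan synthesis, 4.06, and *CAD4*, of the last step of monolignol synthesis, 3.83. *C4H*, of an early step of the phenylpropanoid pathway, was the lowest at 2.55. Another peroxidase gene, *PER15*, had 2.99 in intron 2 of 3, well below *RHS18* and *PER4*.

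Among smaller groups, *ACS4* (*CARHR114120*) and *ACS8* (*CARHR246160*), which encode the enzyme that makes the ethylene precursor ACC, both held a peak in intron 3 of 3. *ACS4* had 4.22 in the reproducible list, and 4.31, 3.52 and 4.85 in the whole-library, the longer and the shorter list, and *ACS8* had 4.08, and 3.94, 4.35 and 3.65. The order of *ACS4* and *ACS8* changed between lists, and their distances from the gene start were 662 and 640 bp. *PEN2*, a defence myrosinase gene, had 4.60, *CYP83A1*, of aliphatic glucosinolate synthesis, 3.85, and *CBL9*, a calcium sensor gene, 4.35. *LOX5*, a lipoxygenase gene, had 4.31, *PSBS*, of photoprotection, 3.51, and *PORA*, of chlorophyll synthesis, 2.70.

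Several intronic peaks in 1 gene were found in 9 genes, of which *CARHR174840* held 3. In *CARHR265300* (match AT5G52340) the peak in intron 5 of 10 had a fold enrichment of 5.78 and that in intron 2 had 3.32, with summits 1172 bp apart. In *CARHR224840* (match AT4G18070) both lay in intron 3 of 3, 2357 bp apart, with 5.48 and 2.91. *CARHR262930* (match AT5G39420) had 4.08 in intron 6 of 8 and 3.14 in intron 1. In *CARHR128100* (match AT2G34020) neighbouring introns 5 and 6 of 6 had 3.20 and 3.17, and in *CARHR222130* introns 5 and 2 of 11 had 2.97 and 2.68. The longer list covered both peaks of *CARHR128100* with the same call, 1294 bp wide. The peaks in intron 6 of *CARHR128100* and intron 1 of *CARHR262930* had no call in the shorter list. The peak in intron 2 of *CARHR222130* was called in the whole-library list only. *CARHR174840* had 4.34 in intron 2 and 4.10 and 2.94 in intron 3 of 6, and *CARHR173010* had 3.16 and 2.73 in intron 3 of 11. For 2 of the 3 in *CARHR174840* and 1 of the 2 in *CARHR173010*, another gene's start was nearest. In 23 genes, the gene with an intronic peak also held an annotated peak of another category.

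Some neighbouring genes held intronic peaks in the same place. Gene numbers run along each sequence in steps of 10, and 44 pairs of genes with intronic peaks had numbers at most 100 apart, of which 8, or 18.2%, had peaks in the same intron number at distances from their own gene starts that differed by at most 100 bp. Of the 26984 other pairs of genes with intronic peaks, 771, or 2.86%, met the same criteria. In all 8 pairs both genes also had the same number of introns, which was not counted for the 771. The summits of the 8 pairs lay from 1789 to 128539 bp apart, so not all were close neighbours. Reads from near-identical copies can be split or shared between them, and the sources do not say how such reads were aligned.

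The distances within the 8 pairs differed by 3 to 73 bp. *UCC3* (*CARHR170600*), a uclacyanin gene, and *CARHR170590* (match AT3G60270) had peaks in their only introns at 254 and 181 bp. The fold enrichment in the reproducible list was 5.30 and 3.69, and it was higher at *UCC3* in each of the 3 single-library lists, with ratios of 1.58, 1.42 and 1.46 in the whole-library, the longer and the shorter list. *CARHR151100* (match AT3G44910) and *CARHR151060* had 6.20 and 4.89 in intron 1 of 2, and the first was again higher in each list, with ratios of 1.23, 1.33 and 1.12.

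Other pairs did not keep their order, or were not called, in every list. *CARHR142320* and *CARHR142310* (match AT2G46960) had 4.60 and 3.13 in intron 1 of 4, at 359 and 367 bp, and only the first was called in the shorter list. *CARHR022930* and *CARHR022950* (match AT1G22570) had 4.10 and 3.63 in intron 3 of 3, and the second was the higher in both pseudoreplicate lists. *CARHR013410* and *CARHR013420* had 5.04 and 3.66 in their only introns, 996 and 981 bp from the start, and their values were nearly equal in the shorter list at 4.50 and 4.52. Over the pairs with both genes called, the gene that was higher in the reproducible list was higher in 8 of 8 pairs of the whole-library list, 6 of 7 of the longer list and 2 of 6 of the shorter list.

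The last 3 pairs had lower values. *CARHR219550* and *CARHR219630* had 3.51 and 2.47 in their only introns, at 942 and 939 bp, and the second was called in the whole-library list only. *CARHR273710*, whose last intron held the strongest intronic peak, and *CARHR273700* had 3.16 and 2.63 in intron 1 of 4. *CARHR285440* and *CARHR285520*, on the scaffold NSCAFA.214I, had 3.47 and 2.75 in intron 5 of 5. In this pair and in that of *CARHR273710* and *CARHR273700*, the second gene was the higher in the shorter list. The scaffold NSCAFA.214I held 6 intronic peaks, with fold enrichments from 2.46 to 4.21. Of these, 2 were in genes whose matches are described as subtilases, proteases of the subtilisin family. The matches of *CARHR285480* (AT5G59120) and *CARHR285530* (AT5G59100) had no description in the held rows, so the count of subtilase genes may be higher. The 3 in genes with 9 introns were all in intron 5, from 1509 to 1914 bp from the gene start.

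**Figure D4:**
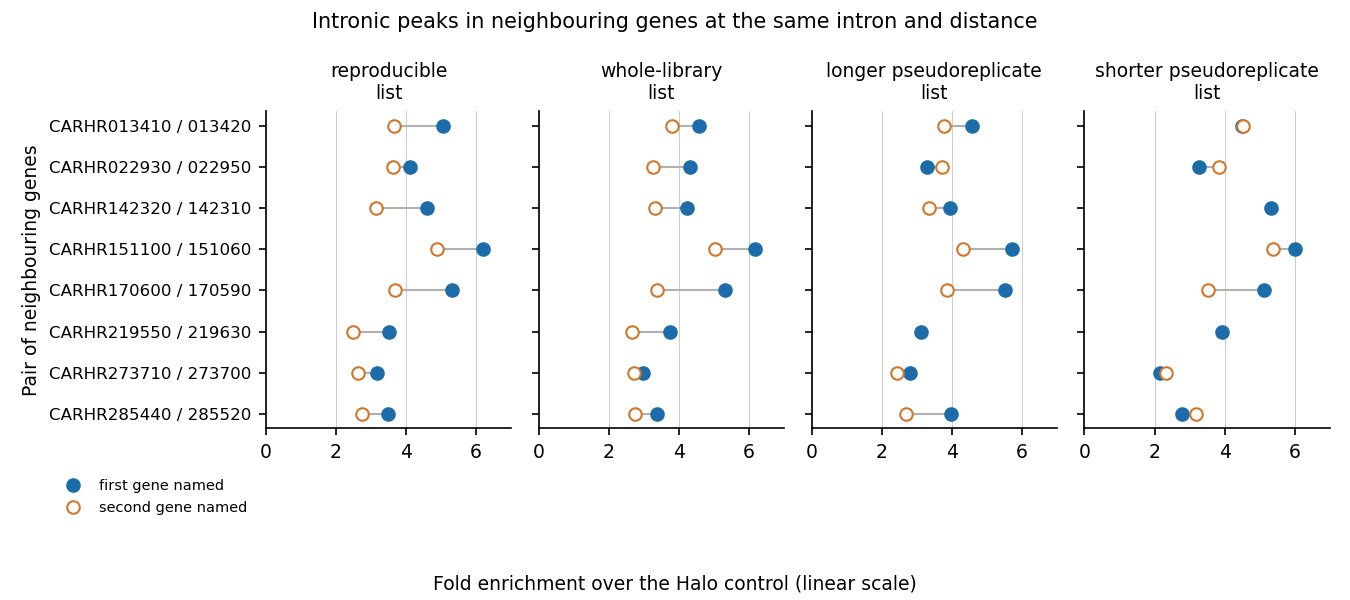
Fold enrichment over the Halo control (x axis, linear scale) of the 8 pairs of neighbouring genes with intronic peaks in the same intron number and at like distances, in the reproducible list and in each single-library list. Filled circles are the first gene named and open circles the second, a grey line joins the values of a pair, and a missing circle is a peak not called in that list. The filled circle is the higher in all 8 pairs in the whole-library list and in 2 of the 6 complete pairs in the shorter pseudoreplicate list.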

How the data were processed

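The authors aligned reads, removed duplicates and called peaks. Bowtie, MACS2 and bedtools are named per the labels, in the submitters' processing notes, with no version, and no genome build is stated. Each deposited list gives, per peak, a fold enrichment (a linear ratio over the Halo control), a p-value and a q-value as −log10, and a summit. The deposited reproducible list also gives a score of reproducibility, with 1000 as its highest value. List names state a p-value threshold of 0.01 against the pooled control for the single-library lists.

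Peaks were joined to the study's annotation by chromosome, start and end, and positions are given as in the lists, counted from 1. A peak counted as called in a list at an overlap of at least 1 bp, and the call with the largest overlap gave the value. Shares have 95% exact (Clopper-Pearson) intervals, and medians have order-statistic intervals. No test was run over peaks, which are not replicates. Python 3.11.15, pandas 2.3.3, NumPy 2.4.6, SciPy 1.17.1 and matplotlib 3.10.9 were used. The counting of overlaps was checked on simulated lists.

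Genes named are the 12 highest and 6 lowest intronic peaks, those in 7 gene lists (109 genes: Aux/IAA, GH3, ABCB, PIN, ANT/AIL, SULTR, CNGC), members of 11 functional groups picked by hand (these are examples and do not hold every gene of their kind), genes with several intronic peaks and like neighbouring pairs; *CARHR137700* and *CARHR259980* were added after their values were seen. The members and lists were chosen with earlier results of these data known. Alternatives were the score and q-value thresholds, other definitions of overlap, the top 50% of each list, each list left out, 1 peak per gene, 1 transcript model, and other limits on gene number distance. Sequences of the peaks were not used here.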

Additional observations from a re-analysis of the deposited data

How the results depend on the processing

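Of 40 alternative values, 28 differed from those reported by less than their interval (for counts, by less than 1.5 times) and 12 moved further. Counts, shares, medians and widths have no direction to change. The difference of medians, which has one, stayed positive in all its alternatives. With an overlap of 50% of both peaks, 93.0% of the intronic peaks were called in the longer list, 23.9% in the shorter list and 55 peaks in each of the 3 lists. The shorter list's calls are narrow, at a median of 229 bp against 500 bp. With the top 50% of each list, 88.5% were called in the longer list and 71.2% in the shorter. Requiring only 2 of the lists gave 190 to 236 peaks, the highest without the shorter list. The median fold enrichment was 3.66 with the top score only. In genes with 2 or more introns, the first held 22.3% and the last 20.5%. Neighbouring pairs numbered 24 and 14 with gene numbers at most 50 and 20 apart, and like pairs 5 at 20. Of the genes with several intronic peaks, 5 had them when only peaks called in each of the 3 lists were counted. Leaving out the scaffold NSCAFA.214I, chosen after seeing the data, gave 237 intronic peaks, 34 neighbouring pairs and 7 like pairs. No paired analysis was possible because the lists carry no replicate numbers and no list of a single control sample was used. Precision is limited by the unknown depth and by 3 lists that are not independent.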

Other observations

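Ranked by fold enrichment, intronic peaks called in both lists had a Spearman's rho of 0.850 between the longer and the whole-library list (n = 236), 0.697 for the whole-library and the shorter list (n = 192), and 0.720 for the longer and the shorter list (n = 190). Over the other annotated peaks the values were 0.834, 0.747 and 0.689. The points share the pooled Halo control and were selected by the reproducible list, and the whole-library and the shorter list share a sequencing run.

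Some related genes that are not within 100 gene numbers of each other, or that differ in distance, also held intronic peaks in the same intron number. These were chosen after their values were seen. *CYP709B3* (*CARHR256920*) on chromosome 8 held a peak in intron 1 of 4, 335 bp from the gene start, with a fold enrichment of 5.58. The pair *CARHR142320* and *CARHR142310* on chromosome 4, of which the second matches AT2G46960 of the same cytochrome P450 subfamily, held theirs in intron 1 of 4 at 359 and 367 bp. *ABCB13* (*CARHR027370*) and *ABCB14* (*CARHR027460*), on chromosome 1, both held a peak in intron 4 of 8, at 1125 and 995 bp, with 2.72 and 3.50. The peroxidase genes *RHS18* on chromosome 6 and *PER4* on chromosome 1 both held theirs in intron 3 of 3, at 829 and 880 bp, with 7.69 and 6.74. Other related genes differed in place. *PER15* held its peak in intron 2 of 3 at 542 bp, and *ABCB10* in intron 5 of 12. *SULTR1;2* and *SULTR1;3* held theirs in introns 2 and 1 of 11. The share of related genes alike in place was not counted, so these examples do not show a common position.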
